A study of Rattus norvegicus with 10 samples.

Results

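Endothelial cells line the blood vessels of the spinal cord, and the 10 genes followed here are carried by these cells. They comprise 4 adhesion molecules that endothelium shows to passing leukocytes (Sele, Selp, Icam1 and Vcam1), 2 molecules of the contacts between endothelial cells (Pecam1 and Cdh5), the clotting protein of endothelial storage granules (Vwf), the angiopoietin receptor of endothelium (Tek) and 2 gap junction proteins of arterial endothelium (Gja5 and Gja4). Members were taken as the mRNA probes of the array whose RefSeq accession belongs to 1 of these genes. Of the 10 genes, 9 had a probe, and 7 were bright enough to be tested, out of 15313 mRNAs on the array and 13375 that passed the same filter on dim probes. Vwf, with no probe under its accession, was not analysed here.

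Total RNA was taken from the lumbar enlargement, the part of the spinal cord that serves the hind limbs, of adult male Sprague-Dawley rats. The 5 rats of the morphine tolerance group (MT, rats 1 to 5) had received 10 μg of morphine in 10 μl into the spinal fluid 2 times a day for 7 days, and the 5 rats of the normal saline group (NS, rats 6 to 10) had received the same volume of saline on the same schedule. All rats were also given a morning injection on the day of collection, of morphine in the MT group and of saline in the NS group. They were anesthetized with pentobarbital 1 hour later, so the groups share the act of intrathecal injection and the anesthesia. The effect of this last dose of morphine and that of the 7 days before it cannot be told apart here. Each rat had 1 one-colour array, values are log2 intensities after quantile normalization, and errors are SDs over the 5 rats of a group, or the standard error (SE) for a fold change.

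The arrays differed in signal. Arrays that share a scan time were taken as 1 slide, so that slide 1 held MT rats 1, 3, 4 and 5, slide 2 held MT rat 2 with NS rats 6, 7 and 10, and slide 3 held NS rats 8 and 9. The share of spots well above background was 81.1% to 83.9% for MT rats and 58.6% to 79.6% for NS rats, and slide 3 was the lowest. The number of arrays limits the precision of each value.

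A leukocyte slows down in a vessel when its sugar-coated ligands catch on selectins. E-selectin (Sele) is made by endothelium after a signal such as TNF or interleukin-1, while P-selectin (Selp) is also kept ready in storage granules beside von Willebrand factor (Vwf). Firm arrest follows when leukocyte integrins bind ICAM-1 (Icam1) and VCAM-1 (Vcam1), and passage through the wall involves PECAM-1 (Pecam1) and VE-cadherin (Cdh5) at the contacts. Connexin 40 (Gja5) and connexin 37 (Gja4) form the channels through which arterial endothelial cells pass electrical signals along the vessel, and TIE2 (Tek) is the receptor that angiopoietins act on to keep vessels quiescent.

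In the RefSeq annotation of GRCr8, Sele (NM_138879) lies on chromosome 13 from 78935997 to 78945905, close to Selp (NM_013114) from 79009379 to 79044994. Vcam1 (NM_012889, 206723050 to 206742783) and Gja5 (NM_019280, 187291227 to 187310770) share chromosome 2, and Tek (NM_001105737, 114722815 to 114849535) and Gja4 (NM_021654, 144917791 to 144920324) share chromosome 5. Icam1 (NM_012967) is on chromosome 8 from 27829688 to 27841618, Pecam1 (NM_031591) on chromosome 10 from 92090263 to 92152002 and Cdh5 (NM_001107407) on chromosome 19 from 821875 to 860931. The array was designed on an older build, so these are positions of the genes and not of the probes. Each member was read by 1 probe with 1 spot per array, and no member spot was marked as an outlier or as saturated.

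NF-κB is the factor through which TNF and interleukin-1 are known to act on adhesion genes, and its binding sites resemble the letters GGNNNTTCC. The sequences around the start sites of 2 adhesion genes that hold these letters and of the 2 members with the largest differences are shown, with every match on either strand in capitals. Each is 300 bases from RefSeq on GRCr8, from 250 bases before the start of a transcript to 50 bases after it, written on the strand of the gene. They are Icam1 at chr8:27829595-27829894 (plus strand), Vcam1 at chr2:206742734-206743033 (minus strand), Sele at chr13:78936264-78936563 (plus strand) and Gja5 at chr2:187290977-187291276 (plus strand). For Sele and Icam1 this start lies inside the outer limits of the gene. The Sele gene begins at 78935997, before the first base of its window, and the bases after the start used open with the letters atg. The sequence before the outer start of Sele is therefore not shown.
Icam1: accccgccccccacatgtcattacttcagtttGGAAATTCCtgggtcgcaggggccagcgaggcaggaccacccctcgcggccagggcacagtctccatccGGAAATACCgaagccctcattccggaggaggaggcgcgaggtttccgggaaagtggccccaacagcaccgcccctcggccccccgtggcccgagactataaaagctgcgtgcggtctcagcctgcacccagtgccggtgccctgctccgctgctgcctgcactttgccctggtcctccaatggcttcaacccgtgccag
Vcam1: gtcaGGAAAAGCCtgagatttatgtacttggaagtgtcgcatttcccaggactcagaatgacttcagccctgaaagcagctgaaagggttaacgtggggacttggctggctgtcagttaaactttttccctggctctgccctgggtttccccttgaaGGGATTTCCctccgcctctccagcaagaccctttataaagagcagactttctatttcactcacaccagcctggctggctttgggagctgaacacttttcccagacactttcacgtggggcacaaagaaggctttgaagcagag
Sele: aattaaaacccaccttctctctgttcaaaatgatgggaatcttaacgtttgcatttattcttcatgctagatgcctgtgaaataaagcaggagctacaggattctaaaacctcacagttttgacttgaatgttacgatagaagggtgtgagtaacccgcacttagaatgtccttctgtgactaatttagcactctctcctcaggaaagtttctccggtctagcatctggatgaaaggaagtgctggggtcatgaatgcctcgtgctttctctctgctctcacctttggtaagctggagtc
Gja5: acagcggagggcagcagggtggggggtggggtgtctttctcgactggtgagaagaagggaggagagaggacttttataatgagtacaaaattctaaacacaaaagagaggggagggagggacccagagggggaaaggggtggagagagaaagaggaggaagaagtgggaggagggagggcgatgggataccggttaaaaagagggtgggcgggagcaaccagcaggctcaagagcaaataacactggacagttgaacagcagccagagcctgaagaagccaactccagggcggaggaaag

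The Icam1 window held the word at 2 places, the first of which, GGAAATTCC at bases 33 to 41, reads as a match on both strands. Vcam1 also held it at 2 places, with GGGATTTCC on the strand shown at bases 158 to 166. Of the 5 members with a window here, Gja4 held it at 1 place (GGCGTTTCC, bases 176 to 184), and the windows of Sele and Gja5 held none. For Sele the sequence before the outer start of the gene was not searched. Of all 33469 rat promoter windows of this length, 18.3% held the word. A match is only a run of letters, and the absence of a match says nothing about NF-κB at these genes.

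Gja5 was the member whose groups were apart. Its log2 intensity was 6.94, 6.75, 6.88, 7.14 and 6.43 in MT rats 1 to 5 and 5.24, 5.09, 5.70, 5.52 and 4.96 in NS rats 6 to 10. The groups did not overlap, with every MT rat higher, as for 2.3% of all mRNAs tested, and no member had every MT rat lower, as 3.48% did. The gap lay between MT rat 5 and NS rat 8. The MT mean was 6.83 ± 0.26 and the NS mean 5.30 ± 0.30 (SD, n = 5 each), a log2 fold change of 1.53 (SE 0.17, limma adjusted p = 0.0215) and a linear fold of 2.88. By P value Gja5 ranked at place 2 among 13373 mRNAs. In spinal cord tissue as a whole, more cells of a type and more RNA per cell cannot be told apart, for this and for all genes here.

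Of the 7 members tested, Gja5 was the 1 that passed an adjusted p of 0.05, where 0.232% of all mRNAs tested did so. The probe was well above background on all 10 arrays, with scanner intensities of 88.4 to 171 in the MT group and 16.3 to 56.5 in the NS group. On slide 2, the only slide that held both groups, MT rat 2 (6.75) was above NS rats 6, 7 and 10 (5.24, 5.09 and 4.96). Without slide 3 the log2 fold change was 1.73 (limma adjusted p = 0.0271). Taking the slide as a random block gave a log2 fold change of 1.56 (limma adjusted p = 0.0822), and taking it as a fixed block, which rests on slide 2, gave 1.65 (adjusted p = 0.220). Gja5 also missed the adjusted threshold without MT rat 1 (limma adjusted p = 0.0989), MT rat 4 (0.0639) or NS rat 9 (0.0675), with log2 fold changes of 1.498, 1.45 and 1.58.

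Gja4, the other connexin of arterial endothelium among the members, gave a different picture. It was at 9.34, 9.20, 9.47, 9.30 and 9.22 in MT rats 1 to 5 and at 9.37, 9.63, 9.63, 9.67 and 9.21 in NS rats 6 to 10, so that the groups overlapped. The MT mean was 9.31 ± 0.11 and the NS mean 9.50 ± 0.20 (SD, n = 5 each), with a log2 fold change of -0.19 (SE 0.11, limma adjusted p = 0.385). The difference between the connexins was tested within each array. The log2 ratio of Gja5 to Gja4 was -2.48 ± 0.23 in MT rats and -4.20 ± 0.22 in NS rats (SD, n = 5 each). This difference of 1.72 had a two-sided exact permutation p = 0.00794, which is the lowest value possible with 5 rats a group (0.0238 after Benjamini-Hochberg adjustment over 9 ratios). Relative to Tek and to Pecam1, Gja5 differed by 1.60 and 1.55, each with the same exact permutation p = 0.00794. Over the 10 rats Gja4 ran only from 9.20 to 9.67 and Tek from 10.08 to 10.475, while Gja5 left a gap from 5.70 to 6.43. The ratios to Gja4 and Tek therefore had to stay apart once Gja5 did. These p values repeat the Gja5 difference and add no support to it. The permutation test exchanges all 10 rats and takes no account of the slide. On slide 2 the log2 ratio of Gja5 to Gja4 was -2.45 in MT rat 2 and -4.14, -4.54 and -4.24 in NS rats 6, 7 and 10, where an exact permutation test cannot go below p = 0.25.

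**Figure D1:**
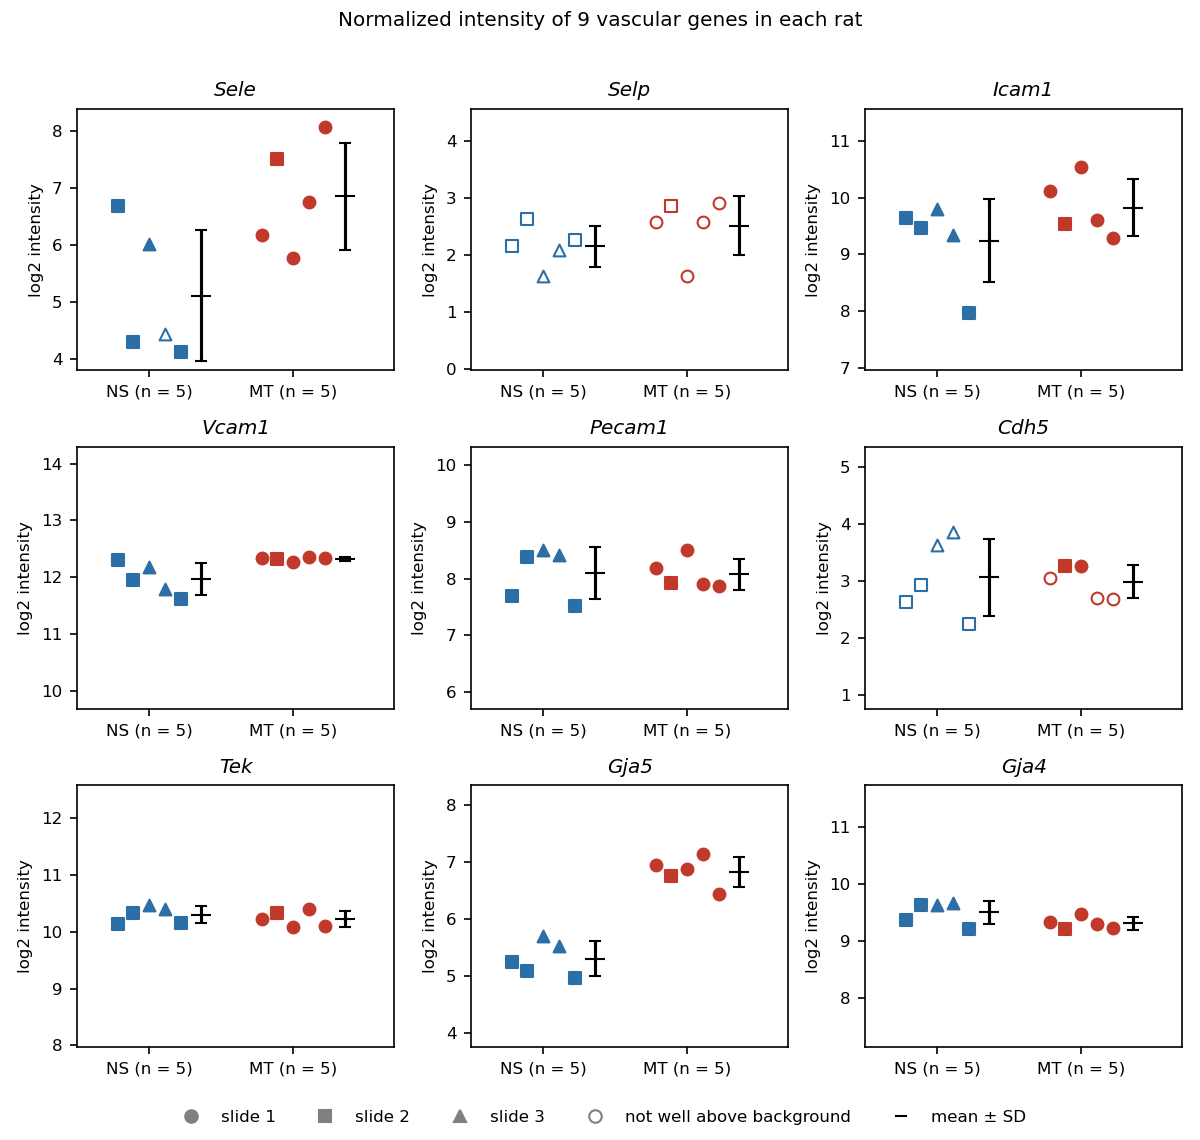
Log2 intensity (y axis, quantile normalized) of the 9 genes with a probe in each rat of the NS group (blue) and the MT group (red), with symbols for the slide, open symbols where the spot was not well above background, and bars for the mean ± SD of 5 rats. The axes of Sele and Icam1 show the widest spread among NS rats, and Gja5 is the gene whose MT rats (6.43 to 7.14) all lie above its NS rats (4.96 to 5.70) among the 7 genes tested.

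Sele had the largest fold of the members, with a wide spread in both groups. Its log2 intensity was 6.17, 7.50, 5.77, 6.75 and 8.07 in MT rats 1 to 5 and 6.68, 4.30, 6.01, 4.44 and 4.12 in NS rats 6 to 10. NS rats 7, 9 and 10 were low, and NS rats 6 and 8 fell among the MT rats. The MT mean was 6.85 ± 0.94 and the NS mean 5.11 ± 1.16 (SD, n = 5 each), a log2 fold change of 1.74 (SE 0.60, limma adjusted p = 0.210) and a linear fold of 3.35. The unadjusted limma P of Sele was 0.0157. By fold, Sele was at place 11 among the 13373 mRNAs and Gja5 at place 21. Its probe was well above background on every array but that of NS rat 9, where the scanner intensity was 6.17.

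The criteria of the study ask for a fold, taken here as linear, above 1.5 together with an unadjusted P below 0.05. Of the 7 members, 2 met them, Sele and Gja5, both higher in the MT group. Beside these 2 stand 2.6% of all mRNAs tested, with 1.62% higher and 0.987% lower. The paper lists both Sele and Gja5 among its most up-regulated mRNAs from these same arrays. Members were chosen with such results known, so shares set beside all mRNAs describe the members and are no test of them. If the fold is read on the log2 scale, 2 members pass as well, beside 0.15% of all mRNAs tested, with 0.12% higher. Gja5 (1.53) is then close to the limit, and it falls below 1.5 without MT rat 1 (1.498), MT rat 4 (1.45), NS rat 7 (1.47) or NS rat 10 (1.44). It also does so with normexp background correction (0.77), where an added offset of 50 by itself shrinks the folds of dim probes. On slide 2 the Sele value of MT rat 2 was 7.50 and those of NS rats 6, 7 and 10 were 6.68, 4.30 and 4.12. With the slide as a fixed block, the log2 fold change of Sele was 2.47 with an unadjusted limma P of 0.0689, so it no longer met them. Without slide 3 it was 1.82 with an unadjusted limma P of 0.0321, and the criteria were met. Leaving out 1 rat at a time gave log2 fold changes of Sele from 1.44 to 2.13, and the criteria held each time.

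Selp was not well above background on any of the 10 arrays, with log2 intensities of 1.63 to 2.91 in the MT group and 1.63 to 2.62 in the NS group, and no difference is given for it. P-selectin could therefore not be set beside E-selectin. Cdh5 was well above background in MT rats 2 and 3 only, and its log2 intensities were 2.68 to 3.26 in the MT group and 2.25 to 3.86 in the NS group. Both genes were left out of the fit.

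Vcam1 had the smallest spread among MT rats of the 7 members tested. Its log2 intensity was 12.35, 12.32, 12.27, 12.36 and 12.34 in MT rats 1 to 5 and 12.30, 11.96, 12.19, 11.80 and 11.62 in NS rats 6 to 10. The MT rats lay together near the top of the range, NS rat 6 lay among them, and the other NS rats were below all of them. The MT mean was 12.33 ± 0.04 and the NS mean 11.97 ± 0.28 (SD, n = 5 each), a log2 fold change of 0.36 (SE 0.12, limma adjusted p = 0.210) and a linear fold of 1.28. The unadjusted limma P of Vcam1 was 0.0157, and 16.8% of all mRNAs tested had one below 0.05. With the slide as a random block the difference of Vcam1 was 0.36 with an unadjusted limma P of 0.0637.

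Icam1 overlapped between the groups, at 10.11, 9.54, 10.54, 9.61 and 9.30 in MT rats 1 to 5 and at 9.63, 9.47, 9.80, 9.33 and 7.98 in NS rats 6 to 10. NS rat 10 was far below the other rats. The MT mean was 9.82 ± 0.50 and the NS mean 9.24 ± 0.73 (SD, n = 5 each), a log2 fold change of 0.58 (SE 0.36, limma adjusted p = 0.446). Without NS rat 10 the log2 fold change of Icam1 was 0.26.

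Pecam1 and Tek, whose products are known from endothelium in general, had group means close to each other. Pecam1 was at 8.18, 7.91, 8.51, 7.91 and 7.87 in MT rats 1 to 5 and at 7.69, 8.38, 8.51, 8.42 and 7.52 in NS rats 6 to 10. The groups covered nearly the same range, and the means were 8.08 ± 0.27 and 8.10 ± 0.46 (SD, n = 5 each), with a log2 fold change of -0.03 (SE 0.22, limma adjusted p = 0.961). Tek was at 10.22, 10.33, 10.08, 10.41 and 10.10 in MT rats 1 to 5 and at 10.14, 10.34, 10.48, 10.39 and 10.15 in NS rats 6 to 10. Its means of 10.23 ± 0.14 and 10.30 ± 0.15 (SD, n = 5 each) gave a log2 fold change of -0.07 (SE 0.10, limma adjusted p = 0.729). The sign of both differences turned in some alternatives, and neither gene met the criteria in any alternative.

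Set against Tek within each array, the adhesion molecules gave differences that did not pass after adjustment over the 9 ratios. The log2 ratio of Sele to Tek differed by 1.82 between the groups (two-sided exact permutation test, p = 0.0476, adjusted p = 0.0714) and that of Vcam1 to Tek by 0.43 (exact permutation p = 0.0317, adjusted p = 0.0713). Icam1 to Tek differed by 0.65 (exact permutation p = 0.167). Between the adhesion molecules, Sele differed by 1.39 relative to Vcam1 (exact permutation p = 0.0476, adjusted p = 0.0714) and by 1.17 relative to Icam1 (exact permutation p = 0.151). Relative to Pecam1 the difference of Sele was 1.77 (exact permutation p = 0.0635).

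**Figure D2:**
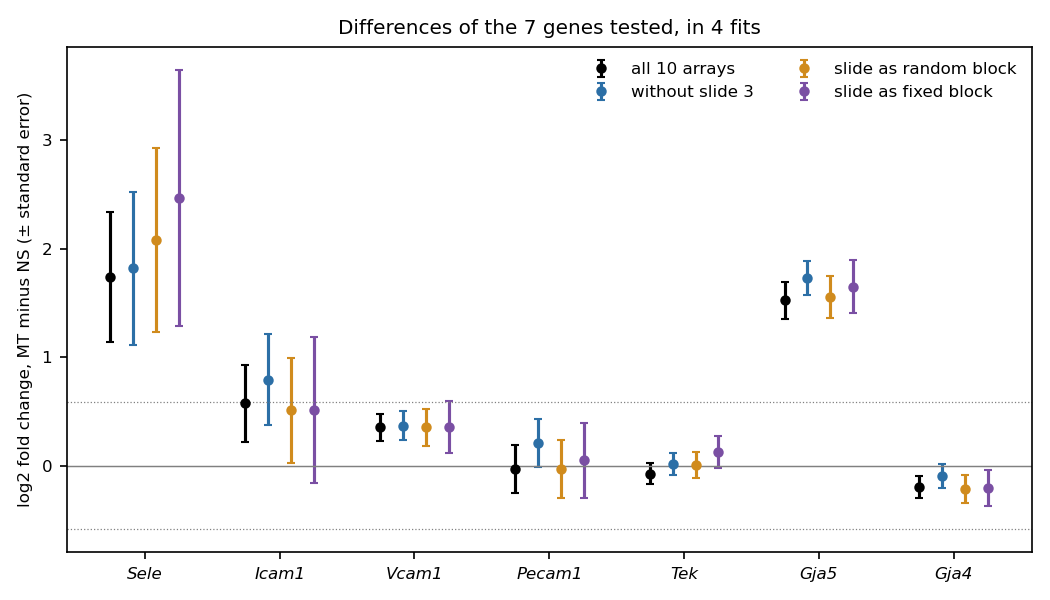
Log2 fold change, MT minus NS, with its standard error (y axis) for the 7 genes tested (x axis) in 4 limma fits, with dotted lines at a linear fold of 1.5 in either direction. Gja5 stays between 1.53 and 1.73 in the 4 fits, Sele reaches 2.47 with a wide error where the slide is a fixed block, and Pecam1, Tek and Gja4 stay close to 0.

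Over all 7 members tested, 4 had a higher mean in the MT group, beside 46.8% of all mRNAs tested, and the median log2 fold change was 0.36, beside -0.02 over all mRNAs. The mean of the members, each taken as the deviation from its own mean over the 10 rats, ranged from 0.26 to 0.30 over the MT rats and from -0.85 to 0.12 over the NS rats. NS rat 10 had the lowest of these values. That rat was the lowest of all 10 rats for Sele, Icam1, Vcam1, Pecam1 and Gja5, and the lowest of its group for 6 of the 7 members. Without NS rat 10, Gja5 had a log2 fold change of 1.44 (limma adjusted p = 0.0282), Sele of 1.495 with an unadjusted limma P of 0.0397 and Vcam1 of 0.27 with one of 0.0307, and 2 members met the criteria. The median of the members was then 0.26.

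How the members varied together from rat to rat was measured after the mean of each group was taken away, over the 10 rats and all 21 pairs of members. The permutations exchanged the deviations freely over both groups and took no account of the means removed. The p values can therefore be too small, which matters for those close to a limit. The closest pair was Pecam1 and Gja4, with Pearson r = 0.965 (permutation p = 6e-05, adjusted p = 0.00126) and Spearman rho = 0.903 (permutation p = 0.00079, adjusted p = 0.0166). Without rats 3 and 10, the 2 farthest from the median of Pecam1, r was 0.948. With the mean of each group on each slide taken away it was 0.949. MT rat 2, alone of its group on its slide, adds nothing to a value of this kind. No slide held 6 arrays, so no value within a slide is given.

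Sele and Vcam1 were the pair of adhesion molecules that passed the adjustment, close to its limit. For Sele and Vcam1, r was 0.744 (permutation p = 0.00701, adjusted p = 0.0475) and rho was 0.745 (permutation p = 0.0176, adjusted p = 0.185), so the rank measure did not pass after adjustment. Without rats 5 and 6 the r of this pair was 0.679, without NS rat 10 it was 0.733, and with the mean of each group on each slide taken away it was 0.771. For Sele and Icam1, r was 0.0654 (permutation p = 0.863), and without NS rat 10 it was -0.415. Whether these 2 correlations differ from each other was not tested.

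Icam1 went with the endothelial contact and connexin genes, but this rested on rats 5 and 10. Its r was 0.786 with Gja4 and 0.752 with Pecam1 (permutation adjusted p = 0.0475 for each), and the rho values of 0.539 and 0.685 did not pass after adjustment (permutation adjusted p = 0.341 and 0.242). Without rats 5 and 10, the r of Icam1 was 0.468 with Gja4 and 0.526 with Pecam1. For Gja5 and Gja4, r was 0.601 (permutation p = 0.0672, adjusted p = 0.188), and without rats 5 and 8 it was 0.553.

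**Figure D3:**
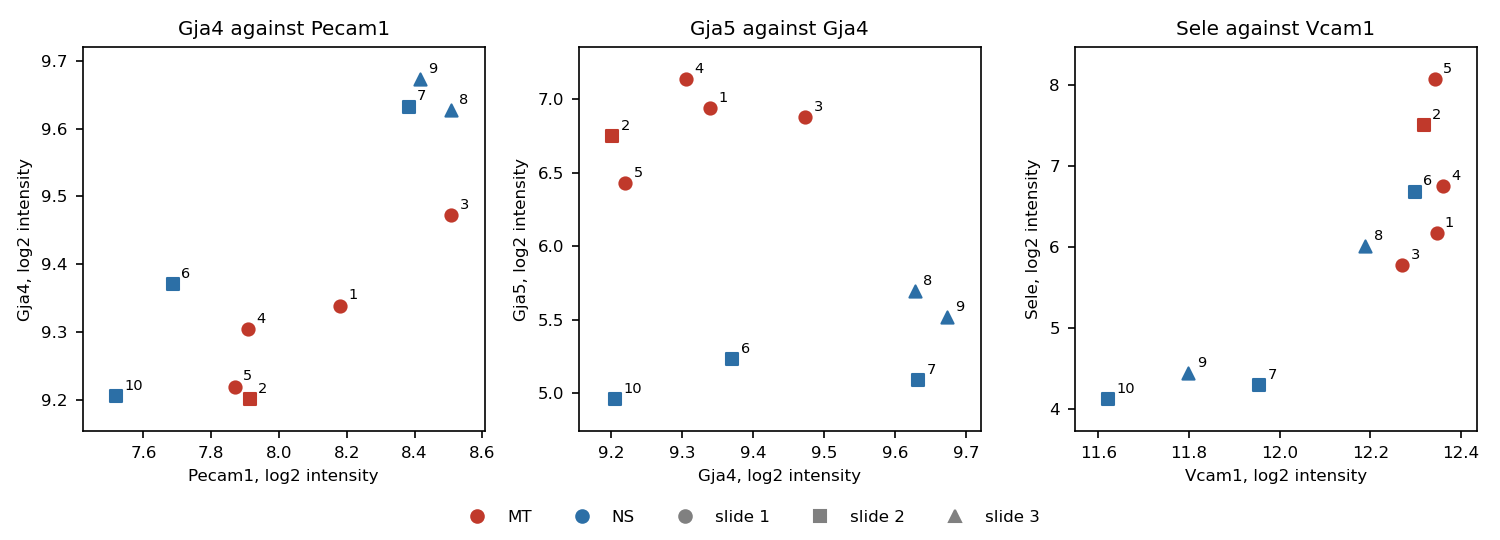
Log2 intensities of Gja4 against Pecam1, Gja5 against Gja4 and Sele against Vcam1 in the 10 rats (numbers beside the points), with colours for the group and symbols for the slide. In the first panel the rats follow a rising line in both groups, in the second the MT rats form a band above the NS rats at similar Gja4 values, and in the third NS rats 7, 9 and 10 lie at the lower left.

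The 5 mRNAs whose values over the 10 arrays were most like those of Gja5 were Trpv4, a calcium-permeable channel (Pearson r = 0.970), Dll1, a Notch ligand (0.967), Tlnrd1 (0.965), Ccr1, a chemokine receptor (0.961) and Adgrl3, an adhesion G protein-coupled receptor (0.951), out of 12456 mRNAs compared. Trpv4 was higher in the MT group by a log2 fold change of 1.06 (limma adjusted p = 0.0215), Ccr1 by 1.37 (adjusted p = 0.0287) and Adgrl3 by 0.37 (adjusted p = 0.0467). These correlations include the group difference, and the points share slide and signal, so they are given as descriptions. For Sele the most similar were Cyp26b1, an enzyme that breaks down retinoic acid (r = 0.972), Ldha, a lactate dehydrogenase subunit (0.958), Pcbd1 (0.956), Blvrb (0.948) and Adamts1, a secreted protease (0.946). None of these 5 passed the adjusted threshold, and Adamts1 differed by 0.94 (limma adjusted p = 0.210) and Cyp26b1 by 0.69 (adjusted p = 0.278).

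Around Gja5, the other genes of arterial endothelium were spread around 0. Of 15 arterial genes tested, among them Notch1, Dll4 and Sox17, 8 had a higher mean in the MT group, the median log2 fold change was 0.02, and 0 met the criteria or the adjusted threshold in limma (2 had an unadjusted P below 0.05). Of 8 venous genes, 5 had a higher mean, with a median of 0.08, and 0 had an unadjusted P below 0.05 in limma. Of the other connexins and the pannexins, which form gap junctions and related channels in neurons and glia, 3 of 10 had a higher mean, with a median of -0.06, and 0 met the criteria in limma (1 had an unadjusted P below 0.05). Over all mRNAs tested, 46.8% had a higher mean and 16.8% had an unadjusted P below 0.05.

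Endothelial identity genes also had a median close to 0, with values on both sides. Of 18 tested, 7 had a higher MT mean, beside 46.8% of all mRNAs tested, and the median log2 fold change of the 18 was -0.02. Their summed intensity ranged from 36139 to 43143 over MT rats and from 38236 to 46600 over NS rats. An unadjusted P below 0.05 was found for 5 of the 18 in limma, beside 16.8% of all mRNAs tested. They were Fli1 (log2 fold change -0.48), Clec14a (-0.49), Emcn (-0.36), Sox7 (0.45) and Gpr4, and the first 4 of these, named after their values were seen, passed neither the criteria nor the adjusted threshold. Gpr4, an acid-sensing receptor of endothelium, rose from 9.97 ± 0.11 to 10.60 ± 0.14 (SD, n = 5 each), a log2 fold change of 0.63 (SE 0.09, limma adjusted p = 0.0353). For Gpr4 every MT rat was above every NS rat, as for 2.3% of all mRNAs tested. It met the study's criteria in 24 of 24 alternatives and missed the adjusted threshold in 11 of them. The limma adjusted p of Gpr4 was 0.205 with the slide as a random block, and 0.0787 to 0.156 without MT rat 1, 4 or 5 or NS rat 7, 8 or 9.

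The ligands and relatives of the adhesion members had medians close to 0, counted over mRNAs. Beside the counts with an unadjusted P below 0.05 stand 16.8% of all mRNAs tested, and beside the counts with a higher mean stand 46.8%. Among leukocyte counter-receptors, the selectin ligands and integrins that bind the 4 adhesion molecules, 4 of 10 genes had a higher mean, the median was -0.10 and 0 had an unadjusted P below 0.05 in limma. Other endothelial adhesion molecules, such as Icam2 and the junctional adhesion molecules, gave 12 mRNAs with a median of 0.04, of which 6 were higher, 5 had an unadjusted P below 0.05 and 0 met the criteria in limma. Genes of the storage granules of endothelium and of haemostasis gave 16 mRNAs with a median of 0.08, 9 of them higher, and 0 met the criteria in limma (4 had an unadjusted P below 0.05). In the angiopoietin and TIE pathway around Tek, 6 of 11 mRNAs were higher with a median of 0.00. These mRNAs come from 7 genes, and the 5 with a lower mean are all of Vegfa, so this median counts 1 gene 5 times. The other 6 genes had log2 fold changes of 0.00 to 0.74. Of the 11 mRNAs, 8 had an unadjusted P below 0.05 in limma, of which 5 are those of Vegfa. The other 3, Klf2, Klf4 and Dok2, had a higher MT mean. Klf4, a transcription factor of quiescent endothelium, met the criteria (log2 fold change 0.74, SE 0.19, limma adjusted p = 0.129). Its relative Klf2 differed by 0.29 (SE 0.07, adjusted p = 0.129) with every MT rat above every NS rat, as for 2.3% of all mRNAs tested. Klf2 and Dok2 were named after their values were seen.

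The list for activation of endothelium by cytokines, the kind of signal to which Sele responds, had more members above 0. It holds genes that cytokines induce, but also the cytokines TNF and interleukin-1 themselves and receptors of TNF. Which cells of the tissue made these RNAs was not tested. Of 26 mRNAs tested, 17 had a higher mean in the MT group, beside 46.8% of all mRNAs tested, and the median log2 fold change was 0.37. In limma 11 had an unadjusted P below 0.05, beside 16.8% of all mRNAs tested, and 5 of these are mRNAs of Vegfa with a lower MT mean. The criteria were met by 4, all higher, and 1 passed the adjusted threshold, beside 1.62% and 0.0972% of all mRNAs in that direction. The 1 was Socs3, an inhibitor of cytokine signalling, at 6.61 ± 0.23 in MT rats and 5.88 ± 0.13 in NS rats (SD, n = 5 each), with a log2 fold change of 0.74 (SE 0.12, limma adjusted p = 0.0467). Birc3, an inhibitor of apoptosis induced through NF-κB, differed by 1.43 (SE 0.39, adjusted p = 0.150). The paper lists Birc3 among its most up-regulated mRNAs from these arrays, so its place in this count was known beforehand. The other 2, Ch25h (0.82) and Il1a (1.27), were named after their values were seen. The 26 mRNAs include 5 of Vegfa, also named after its values were seen, all with a lower MT mean (log2 fold changes of -0.32 to -0.24), and Lcn2, which the neutrophil markers also hold.

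NS rat 10 stood apart in this cytokine group too. The mean deviation of its 26 mRNAs was -1.18 in that rat, -0.22 to 0.23 in the other NS rats and -0.15 to 0.45 in the MT rats. Without NS rat 10 the log2 fold change was 0.78 for Socs3 (limma adjusted p = 0.0466), 1.04 for Birc3 (adjusted p = 0.0744), 0.55 for Ch25h and 0.84 for Il1a, and the last 2 of these no longer met the criteria. With the slide as a random block Ch25h and Il1a also missed them (unadjusted limma P of 0.0645 and 0.0699), and with the slide as a fixed block Birc3 did too (P of 0.109). Il1a missed them as well without MT rat 1, 2 or 4 or NS rat 9. With normexp and its offset of 50 the log2 fold change of Socs3 was 0.36, under a linear fold of 1.5. Socs3 lost the adjusted threshold in 16 of 24 alternatives, among them the slide as a random block (limma adjusted p = 0.243) and the removal of MT rat 1 (0.184).

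**Figure D4:**
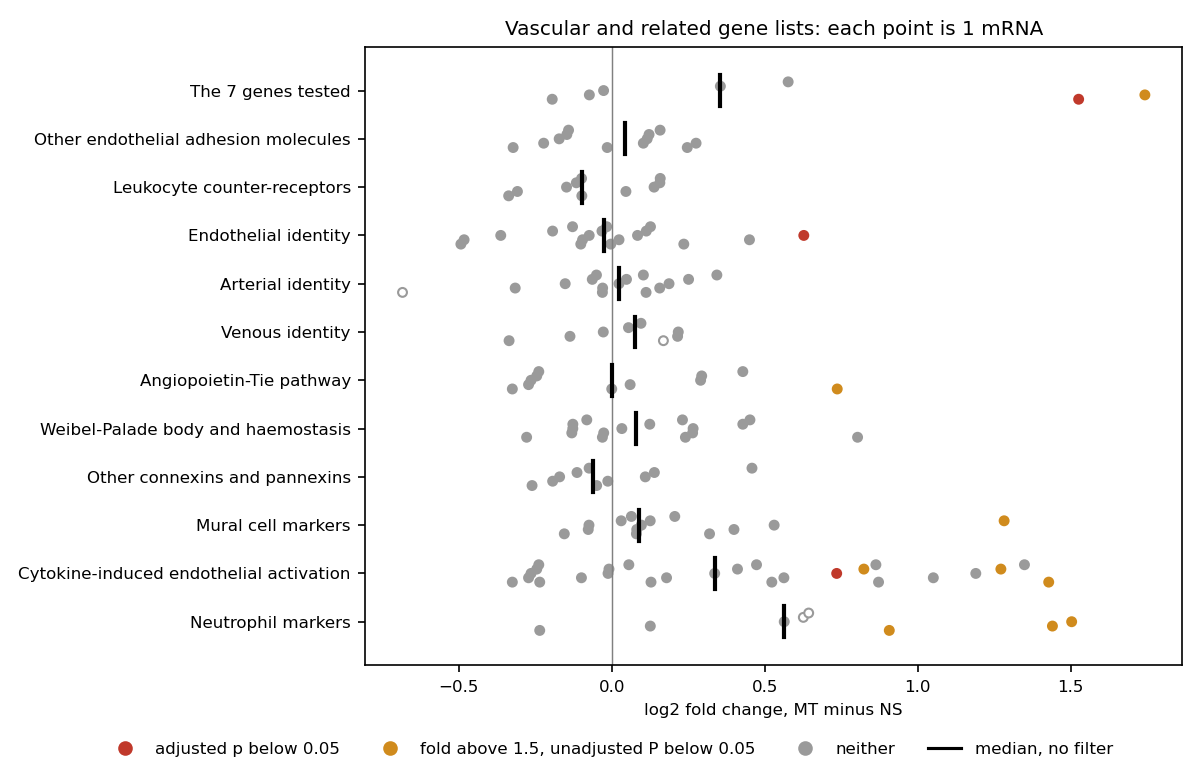
Log2 fold change, MT minus NS (x axis), of each mRNA tested in the members and in 11 other gene lists (rows), with colours for the tests passed and a black line at the median of each list over all its mRNAs on the array, with no filter on dim probes. Open points were well above background in fewer than 3 rats of a group. Gja5, Gpr4 and Socs3 are the points that pass the adjusted threshold, and the medians of the cytokine-induced and neutrophil lists lie at 0.34 and 0.56.

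Markers of blood and of the other cells around a vessel were measured beside these results. Of the 11 neutrophil markers on the array, with no filter on dim probes, 9 had a higher MT mean, beside 45.1% of all mRNAs on the array, and the median of the log2 fold changes was 0.56, beside -0.03. Of the 8 that passed the filter, 3 met the criteria, where 1.62% of all mRNAs tested did so in that direction, namely Csf3r (0.91, limma adjusted p = 0.0636), S100a8 (1.44, adjusted p = 0.121) and, named after its values were seen, Mmp9 (1.503, adjusted p = 0.209). The paper lists S100a8 and Mmp9 among its most up-regulated mRNAs from these arrays, so their place in this count was known beforehand. The mean deviation of the 8 markers ranged from -0.03 to 0.62 over MT rats and from -0.56 to -0.18 over NS rats, with no overlap. Over all 11 markers it was 0.00308 to 0.64 and -0.57 to 0.00342, which overlap by less than 0.01. The summed intensity of the 8, most of which comes from Lcn2, the 1 marker with a lower MT mean, ranged from 3477 to 5383 over MT rats and from 2995 to 6027 over NS rats. On the MT arrays Ngp was well above background in 4 rats and the other 7 markers in all 5, while on the NS arrays Ngp was so in 1 rat and Cxcr2 in 2. The part of these cells in the values of Sele and Vcam1 was not tested.

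Mural cells, the smooth muscle cells and pericytes of the vessel wall, gave 14 markers of which 11 had a higher mean, beside 46.8% of all mRNAs tested, with a median of 0.09. In limma 4 had an unadjusted P below 0.05, all with a higher MT mean, beside 16.8% of all mRNAs tested. They were Cnn1 and, named after their values were seen, Lmod1 (0.40), Anpep (0.32) and Des (0.53). The summed intensity of the 14 markers ranged from 11384 to 16924 over MT rats and from 11020 to 12299 over NS rats. Cnn1, the smooth muscle calponin, met the criteria (log2 fold change 1.28, SE 0.44, limma adjusted p = 0.207) but not with the slide as a block, where it was 1.06 (random) and 0.90 (fixed). Whether mural cells have a part in the difference of Gja5 was not tested.

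Of the remaining markers on the array, with no filter on dim probes, 2 of 6 platelet, 2 of 7 erythrocyte, 8 of 10 meningeal fibroblast and 6 of 6 lymphatic genes had a higher mean in the MT group, with medians of -0.13, -0.02, 0.19 and 0.29. Beside these counts stand 45.1% of all mRNAs on the array. Among the lymphatic genes Flt4 (0.53) and Ccl21 (0.44), both named after their values were seen, were well above background in 5 MT rats but only in 1 and 2 NS rats. Of the genes tested in these 4 lists, 0 met the criteria in limma (1 platelet and 1 lymphatic gene had an unadjusted P below 0.05, beside 16.8% of all mRNAs tested). The meningeal fibroblast markers had a mean deviation of -0.63 in NS rat 10, the lowest of the 10 rats. The markers of spinal cord neurons and glia, 20 mRNAs of 13 genes, were well above background on all 10 arrays, with a median difference of 0.05 and 0 past the criteria in limma (4 had an unadjusted P below 0.05, beside the same 16.8%). They went both ways, and 6 of the 20 are mRNAs of Mbp, a myelin protein. The 3 microglial genes, named after their values were seen, had a lower MT mean, by -0.50 for Cx3cr1, -0.34 for Aif1 and -0.18 for P2ry12. For P2ry12 every MT rat was below every NS rat, as for 3.48% of all mRNAs tested.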

How the data were processed

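Total RNA of 10 lumbar enlargements was hybridized by the authors to rat lncRNA arrays in 1 colour, scanned and extracted with Agilent Feature Extraction 11.0.1.1. The authors deposited spot intensities per array, with background subtracted and not on a log scale, and 1 table of quantile-normalized log2 values. All columns were matched to samples by title. Rats are separate animals, with 1 array each.

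For the values given here, deposited intensities under 1 were set to 1, turned into log2 and quantile normalized (limma 3.58.1, under R 4.3.3). Outlier spots were left out, spots of a probe and probes of an RNA were averaged, and a probe was kept if 5 or more arrays had over 50% of its spots well above background. Groups were compared by lmFit and eBayes over 20286 RNAs (2 gave no estimate), adjusted by Benjamini-Hochberg over all of them. The study's criteria, written with a log2 fold in the methods, were read as a linear fold because the folds listed there are linear. Fits were tested on simulated data. On each array the values correlated with the deposited table with r of 0.993 to 0.999 across RNAs, which are not independent.

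Ratios of 2 genes were compared by exact permutation over rats, and correlations by 100000 permutations. Co-variation was planned for all pairs of the members, and 21 pairs remained once untested genes were left out. Member levels were not compared between probes. Symbols came from RefSeq for 14264 of 15313 mRNA accessions. Named were all members, list genes past the adjusted threshold or, with fewer than 2, the 2 of smallest P past the criteria, and the 5 mRNAs most like Sele and Gja5. Members and all 16 lists were chosen with earlier results of these data known. Python 3.11.15 with scipy 1.17.1 and matplotlib 3.10.9 was used. The number of arrays limits the precision. Tail flick and RT-qPCR values were not analysed here.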

Additional observations from a re-analysis of the deposited data

Results flagged for a closer look

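Among the 7 members tested, 14 groups of 5 rats were examined for a value far from the rest, and chance flags about 1 in 20 such groups. Icam1 in NS rat 10 was the 1 value found. It was at 7.98, the other 4 NS rats were at 9.33 to 9.80, and the gap to the nearest of them was 0.743 of the range of the group, above Dixon's critical value of 0.71 for 5 samples. The same rat was the lowest of all 10 rats for Sele, Vcam1, Pecam1 and Gja5, and its array had 79.6% of spots well above background, the highest share in the NS group.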

How the results depend on the processing

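The log2 fold change of Gja5 met the study's criteria in 24 of 24 alternatives, from 0.77 (normexp background correction) to 1.73 (without slide 3), and that of Sele in 21 of 23, from 0.87 (normexp) to 2.47. Normexp was run on the median spot signal and median local background, with an offset of 50 added to each value. Such an offset by itself draws the log2 fold changes of dim probes toward 0. The number of members past the criteria was 1 with a filter of well above background on all 10 arrays, where Sele is no longer tested and the median of the members was 0.16, and 1 with the slide as a fixed block or with only the slide that holds both groups, where the P of Sele was 0.0689 and 0.107. The number past the adjusted threshold was 0 with the slide as a random block, as a fixed block or with only the slide of both groups (over all RNAs, 0 passed in each of these, with 1421, 839 and 733 at an unadjusted P below 0.05). Leaving out 1 rat gave 0 to 1 past the adjusted threshold and 2 each time past the criteria, with 0 without MT rat 1, MT rat 4 or NS rat 9, and the median of the members went from 0.26 to 0.44. With the Student test of the methods, 2 members met the criteria and 1 had an adjusted p below 0.05.

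Pecam1 turned positive with scaling by the 75th percentile (0.00258), normexp (0.00404), array weights (0.16), the slide as a fixed block or only the slide of both groups (0.0508) and without slide 3 (0.21), and leaving out 1 rat gave -0.17 to 0.0747. Tek turned positive with array weights (0.0204), the slide as a random block (0.00834), the slide as a fixed block or only the slide of both groups (0.12) and without slide 3 (0.0164). None of these Pecam1 or Tek values passed a test, and the cause was not tested. Vcam1, Icam1 and Gja4 kept their direction and their side of the criteria in all 24 alternatives. No paired analysis was possible because the rats are numbered 1 to 10 and the groups share no number. The removal of NS rat 10 or of the means of each group on each slide from the correlations and the Gja5 to Gja4 ratio on slide 2 alone were chosen after seeing the data.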
